A study of Mus musculus with 2 samples.

Results

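Far intergenic accessible sites were the 6016 autosomal DNase-seq peaks of mouse kidney that lay outside every annotated gene and more than 50 kb from every protein-coding start site. They were chosen among the 64395 autosomal peaks of replicate 1 that overlapped a peak of replicate 2 by at least 1 base, and made up 9.34% of them. A site was kept when its midpoint lay outside every gene of any type in GENCODE release M21 and more than 50 kb from the 5′ end of every transcript of a protein-coding gene, on the mm10 sequence. DNase-seq sequences the ends that DNase I leaves where nuclear DNA is not covered by nucleosomes. The tissue was kidney of female B6CASTF1/J mice aged 36 days, F1 animals of a cross between C57BL/6J and CAST/EiJ, an inbred strain founded from wild mice. There were 2 libraries, biological replicates 1 and 2 of a single group, with no treatment and no control. The females have separate numbers in the labels but share a single donor record. Whole kidney mixes many cell types, and a site open in few cells cannot be told apart from a site weakly open in many.

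Replicate 1 held 124504 peaks and replicate 2 held 68056, and sequencing depth was not analysed here. Peak heights are the authors' signal, of unstated scale, so heights are set beside each other within a library, or as a ratio between the libraries. Of genes known from particular kidney cells, 24 of 28 proximal tubule genes, 20 of 26 distal nephron and collecting duct genes and 9 of 14 podocyte genes had a shared peak within 1 kb of a start site, against 12059 of all 20780 protein-coding genes (58.0%) and 21 of 22 housekeeping genes. Lrp2, which encodes the endocytic receptor megalin, reached 7.46 in replicate 1 and 5.11 in replicate 2, and Umod, which encodes uromodulin, reached 5.39 and 4.38. The proximal tubule phosphate transporter gene Slc34a1 reached 2.90 and 1.37, below the start-site medians of 4.67 and 2.86, and the collecting duct water channel gene Aqp2 reached 0.687 and 0.988. The podocyte slit diaphragm gene Nphs1 had no shared peak at a start site.

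Sites of this kind are mostly candidate distal regulatory elements: enhancers, which raise transcription of a gene at a distance by looping to its promoter, silencers, and sites of the insulator protein CTCF. Long stretches without coding genes, known as gene deserts, often flank developmental transcription factor genes and can hold many such elements spread over long distances. Transcription factors bind short sequence motifs in these elements, and a bound factor can leave a footprint, a short stretch protected from DNase I inside an open region.

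The sequences of 8 far intergenic sites are shown because each holds, within a footprint of both libraries, a match to a motif described further on, and was the tallest such site by mean rank over the libraries among sites with no further copy in the genome. Each is 200 bases around the midpoint of the peak, forward strand, read from the GRCm38.p6 reference (mm10), in lower case with the match in capitals. The CAST/EiJ allele that these F1 animals also carry may differ from the reference and was not examined, here or in the motif counts. A match is a description of letters and not evidence that a factor was bound. The printed sites were picked for a match within a footprint, so they do not show how often matches lie in one. The CTCF match lay in the window chr3:19894661-19894860, 62.3 kb from the nearest start site, that of Cp, with heights of 16.4 in replicate 1 and 9.31 in replicate 2. The match to the palindromic consensus of the nuclear factor I (NFI) family lay in chr8:126666481-126666680, 72.6 kb from Irf2bp2. Its site was the tallest of all 6016, with heights of 32.4 and 27.9 in replicates 1 and 2. The HNF4 match in chr4:100008471-100008670 lay 52.8 kb from Pgm1 and had heights of 8.99 and 4.75. The HNF1 match in chr1:157887271-157887470 lay 349 kb from Sec16b and had heights of 5.21 and 2.03. HNF4 and HNF1 are hepatocyte nuclear factors that are also characteristic of proximal tubule cells. The TEAD match, for the factors at the end of the Hippo pathway, lay in chr3:52617521-52617720, 349 kb from Foxo1, with heights of 5.02 and 3.53. The AP-1 match, for the Fos and Jun proteins, lay in chr13:5803661-5803860, 57.7 kb from Klf6, with heights of 7.16 and 4.72. The E-box in chr6:116829421-116829620 lay 113 kb from Tmem72 and had heights of 9.36 and 8.48. The KLF-SP match, for the GC-box factors, lay in chr13:107890121-107890320, 154 kb from Smim15, with heights of 28.9 and 20.8.
CTCF site near Cp: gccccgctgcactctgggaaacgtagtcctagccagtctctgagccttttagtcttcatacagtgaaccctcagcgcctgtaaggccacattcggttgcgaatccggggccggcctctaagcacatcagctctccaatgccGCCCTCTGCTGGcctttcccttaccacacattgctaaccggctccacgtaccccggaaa
NFI site near Irf2bp2: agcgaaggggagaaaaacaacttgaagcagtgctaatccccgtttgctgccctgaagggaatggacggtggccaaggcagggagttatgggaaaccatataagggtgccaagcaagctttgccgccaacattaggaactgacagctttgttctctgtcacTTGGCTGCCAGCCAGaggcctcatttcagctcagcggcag
HNF4 site near Pgm1: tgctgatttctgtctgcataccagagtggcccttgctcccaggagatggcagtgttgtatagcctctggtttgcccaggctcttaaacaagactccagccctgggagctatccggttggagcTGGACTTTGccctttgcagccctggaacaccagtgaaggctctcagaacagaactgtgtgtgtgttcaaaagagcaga
HNF1 site near Sec16b: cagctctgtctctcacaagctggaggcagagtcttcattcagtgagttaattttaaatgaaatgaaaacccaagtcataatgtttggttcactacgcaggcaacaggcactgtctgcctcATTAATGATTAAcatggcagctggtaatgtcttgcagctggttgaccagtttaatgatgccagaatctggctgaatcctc
TEAD site near Foxo1: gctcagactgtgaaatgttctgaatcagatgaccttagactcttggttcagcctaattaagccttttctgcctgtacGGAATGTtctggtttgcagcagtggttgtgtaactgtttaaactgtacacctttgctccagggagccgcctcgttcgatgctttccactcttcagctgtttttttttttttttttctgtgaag
AP-1 site near Klf6: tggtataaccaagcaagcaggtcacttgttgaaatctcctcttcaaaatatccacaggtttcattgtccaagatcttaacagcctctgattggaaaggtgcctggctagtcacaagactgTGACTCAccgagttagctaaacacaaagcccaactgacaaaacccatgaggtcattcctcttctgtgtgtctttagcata
E-box site near Tmem72: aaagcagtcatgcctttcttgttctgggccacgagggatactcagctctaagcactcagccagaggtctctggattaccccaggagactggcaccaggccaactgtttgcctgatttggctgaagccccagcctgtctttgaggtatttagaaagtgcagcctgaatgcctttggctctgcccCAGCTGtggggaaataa
KLF-SP site near Smim15: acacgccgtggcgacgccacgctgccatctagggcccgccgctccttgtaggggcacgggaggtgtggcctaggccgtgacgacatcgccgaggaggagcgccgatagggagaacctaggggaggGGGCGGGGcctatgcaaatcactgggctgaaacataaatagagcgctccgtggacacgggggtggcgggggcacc

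Far intergenic sites were low peaks. Their median height was 1.66 in replicate 1 and 1.05 in replicate 2, against 4.67 and 2.86 at start sites (peaks within 1 kb of a protein-coding start site). Intergenic peaks at 1 to 50 kb lay between, with medians of 2.38 and 1.39, while peaks over 50 kb from a start site but inside a gene were close to the far intergenic sites, with medians of 1.74 and 1.10. The interquartile range of far intergenic heights was 1.06 to 2.74 in replicate 1 and 0.723 to 1.72 in replicate 2, and overlapped that of start-site peaks, 2.25 to 9.94 and 1.34 to 6.65, only in part. Among all shared peaks ranked by height, the median far intergenic site stood at percentile 29.3 in replicate 1 and 30.7 in replicate 2, against 74.8 and 73.8 for start-site peaks. In replicate 1, 361 far intergenic sites (6.00%) were among the tallest quintile of shared peaks, against 43.6% of start-site peaks. The median width was 200 bp both for far intergenic sites and for start-site peaks, with far intergenic sites ranging over 44 to 840 bp.

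**Figure D1:**
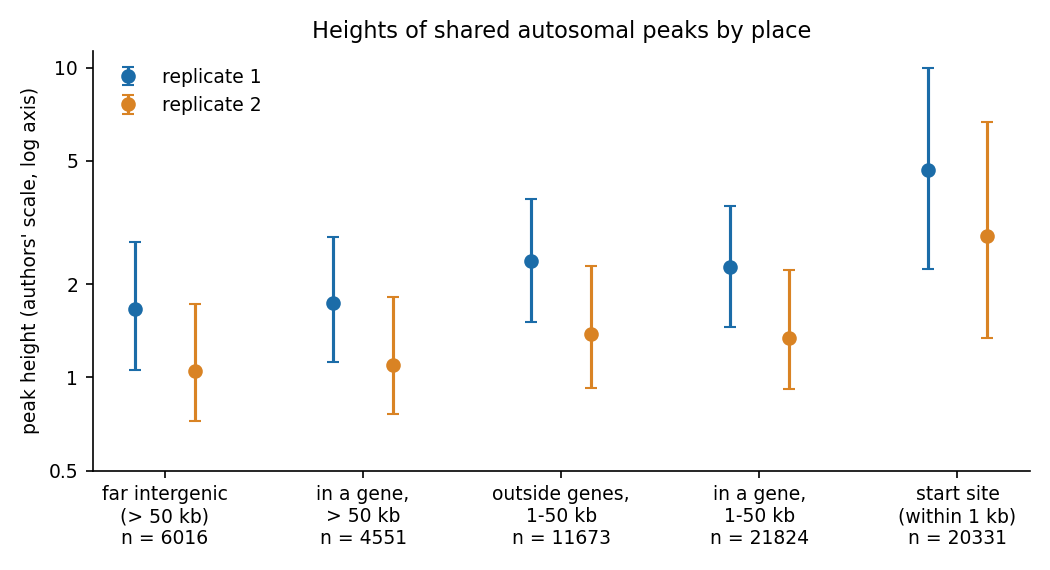
Peak height on a log axis for shared autosomal peaks in 5 places, with replicate 1 in blue and replicate 2 in orange. Points are medians and bars the first to the third quartile over peaks, not error over animals; far intergenic sites have the lowest medians, 1.66 and 1.05.

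With a single group there is no comparison between conditions and no test, and values are set beside each other per library. Across the 6016 sites the Spearman correlation of replicate 1 and replicate 2 heights was 0.831, against 0.973 for start-site peaks. The height was greater in replicate 1 at 86.2% of far intergenic sites, against 92.2% of all shared peaks, and the median log2 ratio of replicate 1 over replicate 2 was 0.55 with an SD over sites of 0.52, against 0.60 and 0.45 for all shared peaks. Both libraries had to hold a peak for a site to be kept, so the overlap itself says nothing about these sites. Of all far intergenic peaks called in a single library, 41.9% of the 14366 in replicate 1 overlapped a replicate 2 peak, against 69.8% of replicate 1 start-site peaks. Of the 6290 far intergenic peaks in replicate 2, 95.6% overlapped a replicate 1 peak, against 96.5% of replicate 2 start-site peaks. Within bands of equal replicate 1 height, the far intergenic share was not below that of start-site peaks. In the lowest quintile of replicate 1 heights 8.46% of far intergenic peaks recurred, against 8.07% of start-site peaks, in the middle quintile 64.2% against 53.2%, and in the highest quintile 99.5% against 98.4%. Of the 8350 far intergenic peaks found in replicate 1 alone, with a median height of 0.566, 37.0% overlapped a peak of the wider set that the authors deposited for replicate 2, and 42.3% overlapped a replicate 2 interval with a deposited false discovery rate below 0.05.

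Accessible sites thinned out with distance from coding genes. The sequence that met the location rule came to 794 Mb, 32.3% of the autosomes, and held 7.57 far intergenic sites per Mb. Intergenic sequence at 1 to 50 kb held 27.4 shared peaks per Mb, that at 50 to 100 kb held 17.0, that at 100 to 200 kb 10.4, that at 200 to 500 kb 4.96 and that beyond 500 kb 1.13. The decline was present in each library counted alone: replicate 1 fell to 4.06 peaks per Mb beyond 500 kb, against 53.3 at 1 to 50 kb, and replicate 2 fell to 1.16, against 28.2. Heights fell along the same bins, with medians of 1.85 and 1.15 at 50 to 100 kb, 1.61 and 1.03 at 100 to 200 kb, 1.47 and 0.937 at 200 to 500 kb and 1.22 and 0.805 beyond 500 kb in replicates 1 and 2. The share of replicate 1 peaks that recurred in replicate 2 also fell, with 46.5% at 50 to 100 kb and 27.7% beyond 500 kb. At the distance limit, the 85 sites at 50 to 51 kb had median heights of 1.89 and 1.32, and the 89 intergenic peaks at 49 to 50 kb had 1.70 and 1.12. The 3 sites just inside the limit, nearest to Anapc15-ps, Socs5 and Pgrmc2, had replicate 1 heights of 6.30, 0.891 and 1.10, and the 3 intergenic peaks just outside it, nearest to Tob1, Gm2310 and Chst14, had 8.46, 1.23 and 4.97.

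**Figure D2:**
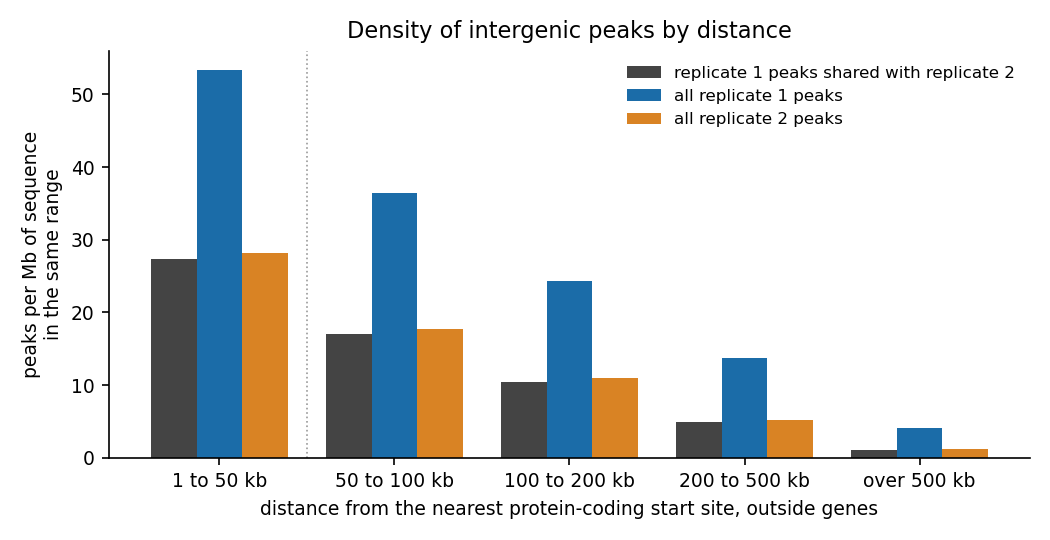
Peaks per Mb of intergenic sequence (vertical axis) by distance from the nearest protein-coding start site (horizontal axis), for replicate 1 peaks shared with replicate 2, all replicate 1 peaks and all replicate 2 peaks. The bins right of the dotted line hold far intergenic peaks; shared peaks fall to 1.13 per Mb beyond 500 kb, and both libraries decline at each step.

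The median site lay 111 kb from a protein-coding start site, and 31 of the 6016 lay more than 1 Mb away. The most distant, at chr1:102628161-102628320, lay 2140 kb from Cdh20, a cadherin gene, and with heights of 4.47 and 4.60 it was well above the median far intergenic site in both libraries. The next 4 lay between 1857 and 2109 kb from Pcdh17 or Pcdh9, which encode protocadherins of the nervous system, and had heights of 0.854 to 1.35 in replicate 1 and 0.499 to 1.10 in replicate 2. Of these, the sites near Pcdh17 were 100% and 93% repeat-masked, and those near Pcdh9 held no masked base. By chromosome, density was highest on chromosome 13, with 10.9 sites per Mb of the same kind of sequence, and lowest on chromosome 3, with 5.51.

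The tallest far intergenic sites were often at the starts of genes that GENCODE does not record as protein-coding. Of the 10 tallest by mean rank over the libraries, 6 lay within 1 kb of the start of a gene of another type. These 6 included the sites at the pseudogenes 2610005L07Rik and Gm21769, which have other copies in the genome and uncertain heights, as described below. Of the 10, 7 were CpG-rich (over 50% GC with an observed over expected CpG ratio above 0.6). The share at such a start was 48% of the 25 tallest and 25% of the 100 tallest. Over all 6016 sites 271 (4.50%) lay at such a start, 167 of them at a lincRNA, and 224 (3.72%) were CpG-rich, against 61.4% of start-site peaks. The share at such a start was 2.98% in the lowest quintile and 13.9% in the highest quintile of replicate 1 heights. Sites at these starts had median heights of 2.22 and 1.40 in replicates 1 and 2, against 1.64 and 1.04 for the other far intergenic sites.

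Among these sites, that at chr16:25059281-25059500, with heights of 26.5 in replicate 1 and 22.5 in replicate 2, lay 248 bp from the start of the lincRNA A230028O05Rik and 214 kb from Lpp. That at chr3:123508361-123508620, with 22.3 and 17.1, lay 87 bp from the start of Snhg8, which hosts a small nucleolar RNA. That at chr15:68363181-68363540, with 20.4 and 17.7, lay 185 bp from the lincRNA Gm20732 and held 9 footprints matched in both libraries. The KLF-SP site printed above lay 157 bp from the start of Zswim6, a zinc finger gene that GENCODE M21 records as a processed transcript and RefSeq as protein-coding. This site is therefore far from a coding start site only in the annotation that the rule uses. In RefSeq's annotation of the same build, 22 of the 6016 sites (0.366%) lay within 1 kb of the start of an mRNA and 199 (3.31%) within 50 kb. RefSeq also placed 1021 sites (17.0%) inside a gene, 917 of them in a lncRNA gene and 56 in a protein-coding one. A total of 4849 sites lay outside all RefSeq genes and more than 50 kb from RefSeq mRNA starts, and had median heights of 1.63 and 1.03.

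Not every tall site was of that kind. The tallest of all, printed above, was 91.8 kb from the nearest start of a noncoding gene and had a GC content of 53.5%. It belonged to the interval between Irf2bp2, which encodes a transcriptional corepressor, and Tomm20, which encodes a receptor of the mitochondrial import machinery. This interval held 21 far intergenic sites in 0.17 Mb, with median heights of 3.54 and 2.47. A wide site in the same interval, at chr8:126735801-126736360, reached 13.2 and 14.0. The site at chr15:85634661-85634720, 52.2 kb from Wnt7b, a signalling ligand of collecting duct development, was 60 bp wide with heights of 21.8 in both libraries and lay inside the RefSeq lncRNA gene D130051D11Rik.

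Copies of the same sequence elsewhere concerned few sites. By alignment at 95% identity over 80% of the peak, 75 far intergenic sites (1.25%) had at least 1 other copy in mm10. Of peaks inside genes over 50 kb from a start site, 0.659% did. The search started from runs of 40 identical bases, so copies without such a run may have been missed. In a separate search at 90% identity over 50% of the peak, no far intergenic site matched the mitochondrial genome. Reads of such copies may be shared between them, so their heights are uncertain. The 3 tallest had 4 other copies each. They lay at chr8:20424741-20424920, chr8:20122141-20122300 and chr8:19784521-19784740, within 17 to 163 bp of the starts of the pseudogenes 2610005L07Rik, Gm21769 and Gm10060. Their heights were 28.9, 26.6 and 15.8 in replicate 1, and 23.2, 18.5 and 15.7 in replicate 2, and each held a CTCF and a KLF-SP match.

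Far intergenic sites were gathered in some gene deserts and missing from others. Taking each stretch between neighbouring protein-coding start sites as an interval, 2912 intervals held sequence that met the rule and 1560 (53.6%) held at least 1 site. The 134 intervals with 10 or more sites held 33.2% of all far intergenic sites in 76.6 Mb, at 26.1 per Mb. They were picked by their number of sites, so this density is a description. At the other end, 51 of the 190 intervals with at least 1 Mb of such sequence held none. These 190 together held 733 sites in 345 Mb, with a median over intervals of 0.950 per Mb. Large intervals reach far from start sites, where density was lower, and interval and distance were not separated. The largest empty one, between the protocadherin gene Pcdh7 and G6pd2, had 3.56 Mb, and the next had Pabpc4l and Pcdh18, and Hace1 and the glutamate receptor gene Grik2, at their ends, with 3.11 and 3.07 Mb.

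The interval with most sites lay between Maf, which encodes a basic leucine zipper transcription factor, and Dynlrb2, which encodes a dynein light chain. It held 44 sites in 0.69 Mb, or 63.9 per Mb, with median heights of 2.10 and 1.25 in replicates 1 and 2. The tallest, at chr8:115983501-115983820, lay 276 kb from the start of Maf, reached 9.05 and 7.80, and had 6 footprints in each library. The next lay 58.5 kb from Maf, at chr8:115766181-115766400, with 7.83 and 6.38. Its neighbour at chr8:115766521-115766720, with 3.15 and 1.77, held an NFI match. Of the 44 sites, 35 had a footprint matched in both libraries.

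The next intervals by number of sites were Zfp608 to Gramd3 with 33, Serp2 to Lacc1 and Mki67 to Mgmt with 30 each, Nr2f2 to Gm10295 with 28 and Cd83 to Jarid2 with 27. Map3k1 to Ankrd55 and Agtr1b to Tbl1xr1 had 25 each, Dhx35 to Gm826 had 24 and Tbc1d1 to Klf3 had 23. Nr2f2 encodes the nuclear receptor COUP-TFII and Klf3 a Krüppel-like repressor. The Serp2 to Lacc1 interval was the densest of these 10, at 92.5 sites per Mb, and its tallest site, at chr14:76819701-76819940, reached 13.9 in replicate 1 and 13.0 in replicate 2. The Agtr1b to Tbl1xr1 interval was the least dense of the 10, at 16.3 per Mb, still above the 7.57 per Mb of all such sequence. The intervals were ranked by these same counts, so their high density is a description.

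**Figure D3:**
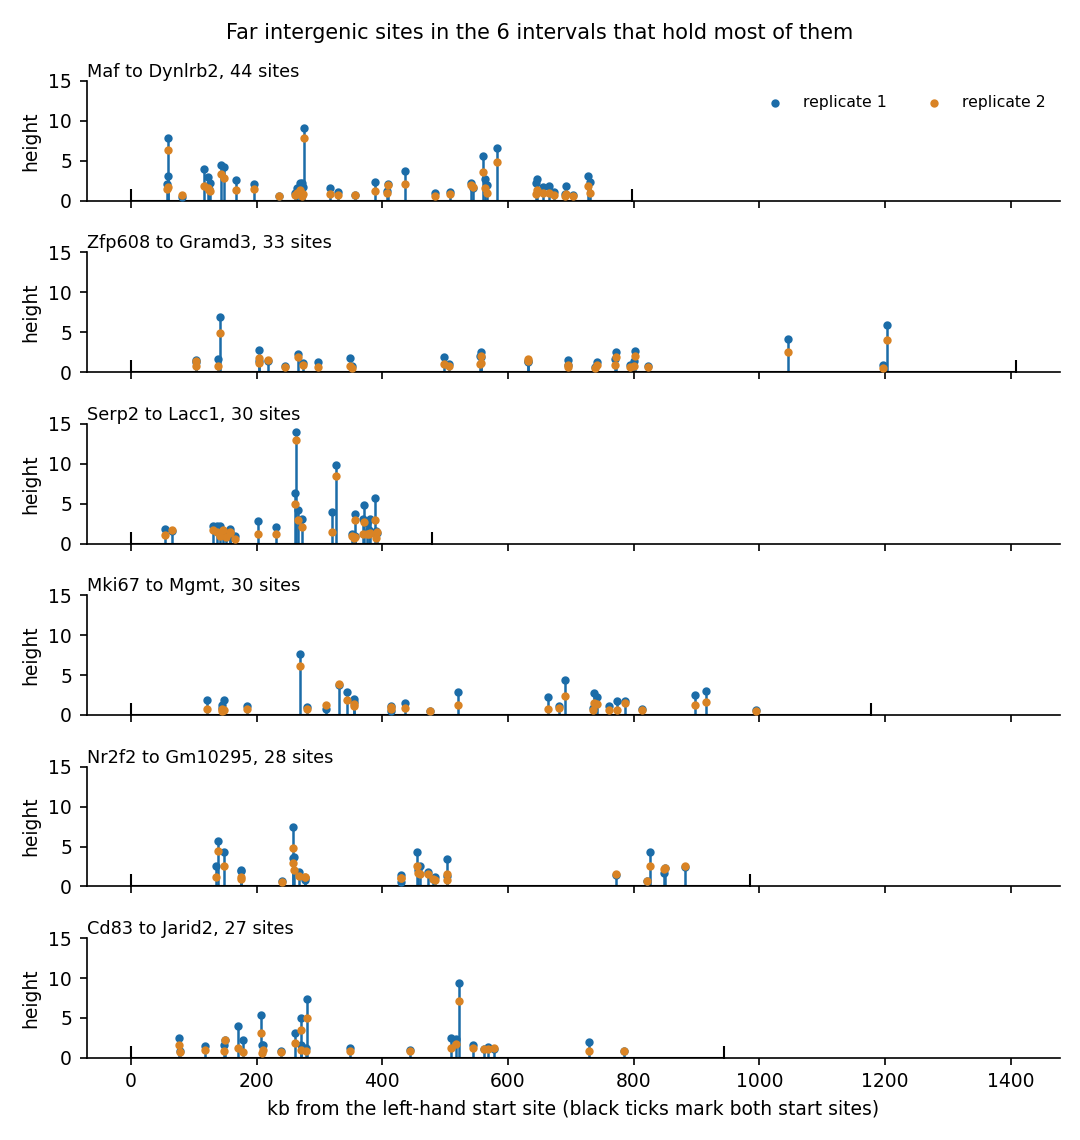
Height (vertical axis) of each far intergenic site along the 6 intervals that hold most of them, by distance in kb from the left-hand start site (horizontal axis), with replicate 1 in blue and replicate 2 in orange. Sites lie along most of each interval outside the 50 kb at its ends, and the tallest replicate 1 sites are also high in replicate 2, such as 9.05 and 7.80 in the Maf to Dynlrb2 interval.

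Grouped by the nearest protein-coding gene, kidney transcription factors had 146 sites in 9.23 Mb, or 15.8 per Mb, against 7.57 per Mb over all protein-coding genes. Of the 32 genes of the list with such sequence nearest to them, 22 (68.8%) had at least 1 site, against 2008 of 4416 (45.5%) over all genes. The lists were written with earlier results of these data known, so these contrasts are a description. Maf had 27, with 19 more at Sall1, a zinc finger factor needed for kidney development, 14 at Ppargc1a, the coactivator of mitochondrial biogenesis, and 11 at Cited2, a partner of the CBP and p300 coactivators. The tallest site nearest to Sall1 reached 8.45 and 6.11, and the tallest nearest to Ppargc1a 6.43 and 5.80. Factors that specify other organs had 5 sites in 3.21 Mb, or 1.56 per Mb, and 2 of these were nearest to Nkx6-1, a factor of the endocrine pancreas and nervous system. Neuronal adhesion and synaptic genes had 59 sites in 64.2 Mb, or 0.918 per Mb, with 7 at Unc5d, a netrin receptor gene, and 5 at Cdh6, a cadherin also known from kidney epithelium. A nearest gene is a label of place and is not known to be the gene that a site acts on. Lists also differed in the sequence nearest to their genes, such as 64.2 Mb for 57 neuronal genes and 9.23 Mb for 32 kidney factors. Site density fell with distance, from 17.0 per Mb at 50 to 100 kb to 1.13 beyond 500 kb. List densities, here and below, were not matched for distance, so list and distance cannot be told apart.

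Endothelial genes had 42 sites, or 14.0 per Mb. Ets1, a transcription factor gene, had 12, with heights up to 4.57 and 3.39, and Kdr, which encodes the main receptor of vascular endothelial growth factor, had 10, with heights up to 3.03 and 2.93. Cdh5, which encodes VE-cadherin, had 9 and Nrp1, a coreceptor of the same growth factor, had 5. Among ligand genes, which had 46 sites or 9.22 per Mb, Vegfa itself had 8, of 50.6 to 137 kb away, with heights up to 5.82 and 3.38. Fgf9 had 9, Inhba had 5 and Bmp7, a ligand that nephron progenitors need, had 3. Stromal and mural genes had 33 sites, or 11.3 per Mb, of which Meis1, a homeobox factor of the renal stroma, had 11 and Dcn, which encodes the matrix proteoglycan decorin, had 4 that reached 7.89 and 4.50.

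Genes of the nephron's own transport machinery had few sites and little sequence that met the location rule nearest to them. Only 7 of the 28 proximal tubule genes had such sequence. They had 10 sites in 0.34 Mb, or 29.8 per Mb, above the 7.57 per Mb of all genes. There were 3 each at Kl, which encodes the FGF23 coreceptor klotho, at Slc13a1, a sodium sulfate cotransporter, and at Slc22a12, the urate transporter. The sites at Slc13a1 were tall for their kind, with medians of 5.72 and 2.09. Distal nephron and collecting duct genes had 6 sites in 1.27 Mb, or 4.71 per Mb, of which Kcnj16, a basolateral potassium channel subunit, had 3 with medians of 5.24 and 3.21, and Sgk1, the aldosterone-induced kinase, had 2. Podocyte genes had 7 sites in 0.80 Mb, or 8.74 per Mb. The leukocyte gene Ptprc was the only gene of the immune list with such sequence and had 6 sites in 0.42 Mb, or 14.3 per Mb. Ywhaz was the only such housekeeping gene and had 7 sites in 0.083 Mb, or 84.3 per Mb. The densities at Ptprc, at Ywhaz and at the kidney transcription factors all lay above the 7.57 per Mb of all genes. That of the distal nephron and collecting duct genes lay below it.

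Some sites lay close to another. The median distance to the nearest other far intergenic site was 9.74 kb, and 2288 sites had one within 5 kb.

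The sequence of far intergenic sites differed from that around them. Their median GC content was 50%, against 44.5% in windows moved by 2 kb to each side, and the sequence that met the location rule had a GC content of 39.8%. Repeats, taken from the soft-masking of the reference, covered on average 8.49% of a site window, 25.7% of the moved windows and 38.9% of all such sequence. Only 138 sites (2.29%) were more than 50% masked, with median heights of 1.43 and 0.963, against 1.70 and 1.08 for the 3081 sites with no masked base. Low masking was not particular to far intergenic sites. Peaks over 50 kb from a start site inside genes had a median GC content of 50.5%, and 1.80% were more than 50% masked. The values were 52% and 3.08% at intergenic peaks at 1 to 50 kb, and 54% and 1.87% over all shared peaks. The part of read mapping in these values was not tested.

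Most far intergenic sites held a footprint. In replicate 1, 95.2% held at least 1 and in replicate 2 88.8%, against 92.5% and 89.9% of start-site peaks. A footprint matched between the libraries, with an overlap of at least 50% of the shorter, was found in 4139 sites (68.8%), against 80.4% of start-site peaks. Taller sites held footprints more often, as did taller peaks elsewhere. Within the lowest quintile of replicate 1 heights, footprints were present in 89.2% of far intergenic sites and 83.5% of all other shared peaks, and within the highest quintile in 100% and 99.8%. In the lowest quintile, start-site peaks had 60.6%, and peaks over 50 kb away inside genes 89.1% and intergenic peaks at 1 to 50 kb 89.4%, close to the far intergenic sites. In replicate 2 the same shares were 75.8% and 75.1% in the lowest quintile and 99.7% and 99.8% in the highest. The site with most matched footprints, at chr7:73618121-73618700, 76.6 kb from Chd2, a chromatin remodeller gene, was 580 bp wide with a GC content of 70.5%. It held 11 footprints in replicate 1, 12 in replicate 2 and 10 matched, at heights of 13.1 and 9.91. The site with the third most matched footprints, 8, lay 88.5 kb from 1700001O22Rik, followed by sites near Arid1b and Klf4 with 7 each.

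Among the motifs found in over 100 far intergenic sites, those of CTCF, the insulator protein, and of NFI had the largest shares relative to their surroundings. The CTCF consensus was found in 277 sites (4.60%), against 0.158% of the windows moved by 2 kb, and in 4.61% of all other shared peaks. The share was lower than at intergenic peaks at 1 to 50 kb, with 8.61%, and higher than at start-site peaks, with 1.61%. By distance it was 5.51% at 50 to 100 kb, 3.98% at 100 to 200 kb, 4.12% at 200 to 500 kb and 1.70% of the 235 sites beyond 500 kb, where few sites carry a match. Of the 278 CTCF matches in far intergenic sites, 92.1% lay wholly inside a footprint of replicate 1 and 48.9% inside one of replicate 2, where 6.23% and 3.19% of all window positions of that length did. The NFI consensus was found in 120 sites (1.99%), against 0.0499% of the moved windows, in 1.18% of all other shared peaks, in 1.71% of peaks over 50 kb from a start site inside genes and in 0.585% of start-site peaks. The ratio of 40 to the moved windows is uncertain, since few of these held a match. In the other classes 0.0989% to 0.129% of moved windows held one, and ratios were 5.67 to 17.3. Of the 122 NFI matches, 86.1% lay inside a footprint of replicate 1 and 52.5% inside one of replicate 2. For all window positions of that length the shares were 4.62% and 2.24%.

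The hepatocyte nuclear factor motifs were rarer. CAAAGTCCA, for HNF4, was found in 101 sites (1.68%), against 0.316% of the moved windows and 1.37% of all other shared peaks, while peaks over 50 kb from a start site inside genes had 1.76% and start-site peaks 0.634%. Of its matches 30.7% lay inside a replicate 1 footprint and 9.90% inside a replicate 2 footprint. For all window positions of that length the shares were 8.60% and 4.80%. The HNF1 consensus was found in 18 sites (0.299%), against 0.0582% of the moved windows. Of its 29 matches, both strands counted, 75.9% lay inside a replicate 1 footprint and 10.3% inside a replicate 2 footprint. For all window positions of that length the shares were 6.23% and 3.19%. A shorter form that covers the first letters of the HNF1 consensus, GTTAATNAT, was added after seeing that the long one was rare. It was found in 128 sites (2.13%), against 0.665% of the moved windows and 1.44% of all other shared peaks.

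Among common motifs, the E-box CAGCTG was found in 20.1% of far intergenic sites, against 8.05% of the moved windows and 16.9% of all other shared peaks. TGANTCA, for AP-1, was found in 9.97%, against 6.47% of the moved windows, with 9.42% at 50 to 100 kb, 10.2% at 100 to 200 kb and at 200 to 500 kb, and 13.6% of the 235 sites beyond 500 kb. ACATTCC, for TEAD, was found in 6.03%, against 2.97% of the moved windows and 4.11% of all other shared peaks, and CAGGAAGT, of the ETS family, in 5.25%, against 1.58% of the moved windows and 3.55% of all other shared peaks. Peaks over 50 kb from a start site inside genes, the class nearest in height, had 19.8% for CAGCTG, 9.21% for AP-1, 6.06% for TEAD and 4.31% for CAGGAAGT, while start-site peaks had 12.6% for CAGCTG and 2.28% for TEAD. Of the CAGGAAGT matches 5.33% lay inside a replicate 1 footprint, where 9.63% of window positions of that length did. Of the TEAD matches 6.93% lay inside a replicate 1 footprint and 4.53% inside a replicate 2 footprint. These shares were below the 10.96% and 6.66% of window positions of that length. AP-1 matches had 11.06% and 7.99%, against the same position shares. Shares were above those of positions for CAGCTG, with 20.3% and 15.5% against 12.3% and 7.73%. The same held for KLF-SP, with 62.6% and 35.1% against 9.63% and 5.58%. CCCCGCCC, for KLF-SP, was found in 2.43%, against 0.623% of the moved windows, 10.5% of all other shared peaks and 24.1% of start-site peaks. The motifs GATA, as AGATAAG, and homeobox, as TAATTA, were found in 2.14% and 5.52% of far intergenic sites, against 2.68% and 6.07% of the moved windows. These shares were above the 1.43% and 2.99% of all other shared peaks. Peaks over 50 kb from a start site inside genes had 1.87% and 4.92%. Motifs were searched on both strands. How often letters match depends on base composition, which differed between sites and surroundings, and no correction was made for it.

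**Figure D4:**
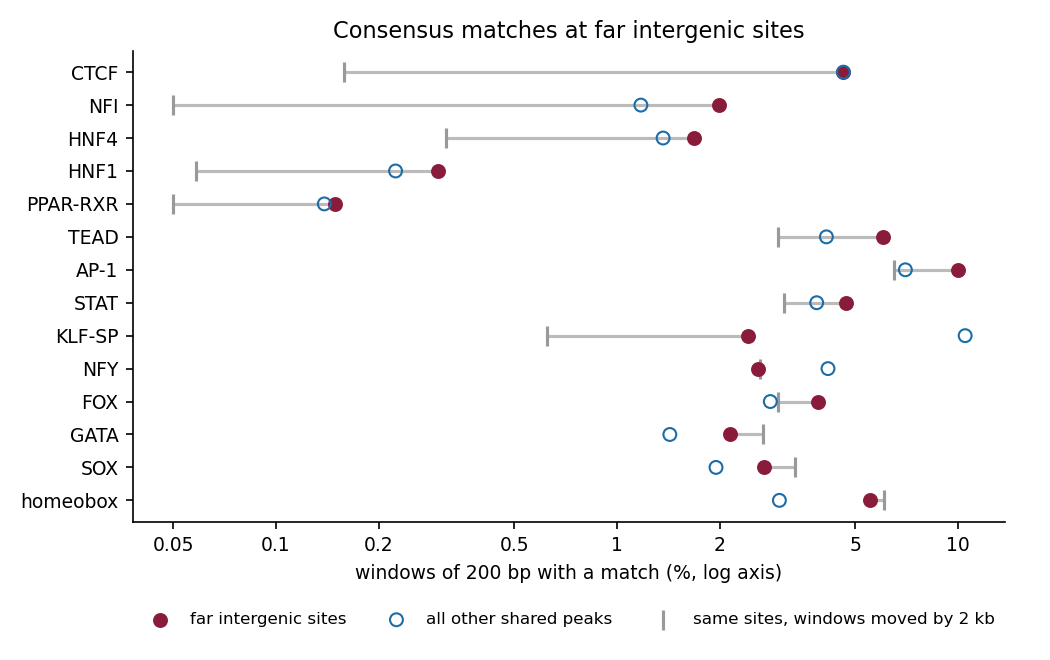
Share of 200 bp windows with at least 1 match (horizontal log axis, in %) for 14 motifs, in far intergenic sites (filled), in all other shared peaks (open circles) and in windows moved by 2 kb from the far intergenic sites (ticks). CTCF, at 4.60% against 0.158%, and NFI, at 1.99% against 0.0499%, have the largest ratios to the moved windows, while GATA, SOX, NFY and homeobox lie below them. Few moved windows held an NFI match.

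The libraries differed more at sites with a CTCF match than at the other far intergenic sites. Median heights of the 277 far intergenic sites with a CTCF match were 2.18 in replicate 1 and 0.917 in replicate 2, against 1.63 and 1.06 for the 5739 without one, so that they were taller than the rest in replicate 1 and lower in replicate 2. The median log2 ratio of replicate 1 over replicate 2 was 1.13 with a CTCF match and 0.52 without. Within quintiles of the mean height it was between 0.82 and 1.30 with a match and between 0.41 and 0.65 without. Peaks elsewhere had medians with and without a match of 1.13 and 0.61 at intergenic peaks at 1 to 50 kb and 0.95 and 0.59 at start-site peaks. Sites with an NFI match had a median of 0.55, as did those without one, and sites with an AP-1 match had 0.55. Sites with the HNF1 consensus also had a raised median, 1.13 over 18 sites, and its shorter form had 0.90 over 128. KLF-SP matches had 0.73 over 146 sites and HNF4 matches 0.67 over 101. Without a match, the medians for the shorter HNF1 form, KLF-SP and HNF4 were each 0.54. Medians were lower with a match than without for CAGCTG (0.44 and 0.57), TEAD (0.43 and 0.55) and CAGGAAGT (0.35 and 0.56).

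Far intergenic sites had to be a peak in replicate 2, which bounds that height from below, so the same was counted over all 14366 far intergenic peaks of replicate 1. In its second lowest quintile of heights, 11.5% of the 148 peaks with a CTCF match recurred in replicate 2, against 32.9% of the 3089 without. In the middle quintile 42.0% of 157 recurred, against 65.6% of 2366, and in the next 84.3% of 166, against 92.3% of 1847. In the highest quintile all 53 with a match recurred, against 99.5% of 1005. The libraries are the only replicates, so a difference between them has no further replicate check, and its cause was not tested.

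**Figure D5:**
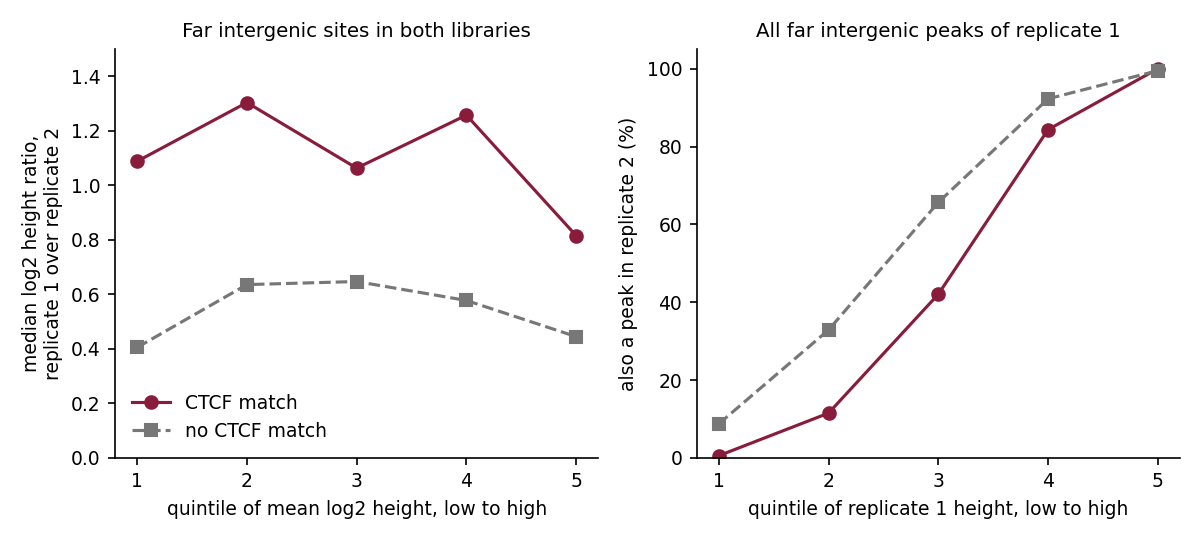
Left, median log2 ratio of replicate 1 over replicate 2 height for far intergenic sites with and without a CTCF match, by quintile of mean height. Right, share of all far intergenic peaks of replicate 1 that are also a peak in replicate 2 (%), by quintile of replicate 1 height; the share is lower for peaks with a match in each quintile but the highest, with 42.0% against 65.6% in the middle one.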

How the data were processed

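DNase-seq of kidney from 2 libraries, replicates 1 and 2 of 1 group, was analysed from the deposited interval files, made separately for each library from a filtered alignment to mm10, per the deposited description. For the aligner, the peak caller and sequencing depth, the entry is: not given in the sources used here. Peak heights are the authors' deposited signal, whose scale is unstated. The false discovery rate of each deposited interval is the authors' own p-value type measure, used only to look for replicate 2 signal at unshared peaks. Footprints are intervals the authors deposited with the value 0.01 in every row, and only their positions were used. The smaller of the deposited peak sets of each library was used.

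Peaks overlapping by at least 1 base were called shared. Genes and start sites came from GENCODE M21. Motifs were searched on both strands in 200 bp around each midpoint and in windows moved by 2 kb. A footprint was matched at 50% overlap of the shorter one. Copies were found with megablast at 95% identity over 80% of a peak, with a word of 40 bases. Mitochondrial matches were searched with blastn at 90% identity over 50% of a peak. Quintiles of height were cut over all shared peaks, or over all peaks of a library where single libraries are described. Sites, genes and intervals were named by rule: the 10 tallest sites, the 5 most distant, the 5 with most matched footprints, the 3 on each side of the distance limit, the 3 tallest with copies, the 10 intervals with most sites and up to 4 genes per list. The empty intervals, the Irf2bp2 to Tomm20 interval and further sites near Maf were chosen after their values were seen. Printed sequences follow the rule of the tallest match in a footprint of both libraries, with chromosome 18 left out by the rule and sites that have copies left out as a later addition. The members and lists were chosen with earlier results of these data known. Scripts were tested on simulated data. Python 3.11.15, numpy 2.4.6, pandas 2.3.3, scipy 1.17.1, pysam 0.24.0, bedtools 2.31.1 and BLAST 2.17.0 were used. Some items are not reported here. No chance test was made, since there is 1 group.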

Additional observations from a re-analysis of the deposited data

How the results depend on the processing

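Of 112 values recomputed under other settings, 79 stayed within their limit and 33 did not. The limit was a ratio for the number of sites and the spread between the libraries for the other values. For sites per Mb the spread was 7.19 around 7.57. Values of 2.40 with the stronger 50% of peaks and 12.5 with the larger peak files thus counted as within it. For median width the spread was 0, so any change counted as outside. The counts of 79 and 33 depend on these limits and do not measure how stable the values are. The number of sites was 10419 at a distance of over 20 kb, 3329 at over 100 kb, 9959 with the larger peak files and 1907 with the stronger 50% of peaks. With those larger files the median replicate 1 height was 1.12, and footprints were present in 86.9% of sites in replicate 1 and 70.4% in replicate 2. With the stronger 50% the median heights were 3.46 and 2.28, replicate 2 footprints 98.0%, the CTCF share 3.67%, the HNF1 share 0.367% and the median GC content 52.0%. The CTCF share was 5.18% with only the 5′ end of each gene as a start site, 5.91% at over 20 kb and 3.88% at over 100 kb. The HNF1 share, resting on 18 sites, was 0.270% and 0.280% with other start-site choices, 0.326% and 0.330% at over 20 and over 100 kb, 0.251% with the larger files, and 0.249% and 0.399% in windows of 100 and 300 bp. Under settings chosen after seeing the data it was 0.227% outside RefSeq genes and far from RefSeq starts, and 2.13% with the shorter consensus. Taking a single library gave 6290 to 14366 sites, 7.92 to 18.1 per Mb, a median width of 180 bp, a replicate 1 height of 0.826, replicate 1 footprints in 81.2% of sites, HNF1 shares of 0.299% to 0.318% and a GC content of 48.0% to 50.5%. The cause of these shifts was not tested, beyond the sites each setting adds or drops. Read depth is not given in the sources used here, so a site missing from replicate 2 may be undetected there rather than closed. No paired analysis was possible because there is 1 group.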
